A study of Mus musculus with 12 samples.

Results

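Hox genes and the noncoding RNA genes of the Hox clusters were examined in total RNA-seq libraries of mouse colon and whole blood. The genes were found by symbol: the protein-coding Hox genes listed in a table of normalized counts, together with Hottip, Hotair and Hotairm1. As a group they were selected on their normalized counts in these same libraries, in which Hottip had differed widely between mice, so those counts are given as a description. The rule found 39 of 53801 counted genes. They comprise 36 Hox protein genes, 11 of the Hoxa, 9 of the Hoxb, 7 of the Hoxc and 9 of the Hoxd cluster, and the 3 noncoding genes. Of these, 38 were listed for colon and 17 for blood, and all 17 were also listed for colon. Hotair is listed for neither and is kept because the rule names it. A mean of at least 10 normalized counts was reached by 33 in colon and by 2 in blood. Hoxc5 at 11.2 and Hoxc10 at 10.9 lay just inside this limit in colon, and Hoxc6 at 8.44 and Hoxc11 at 8.11 lay just outside it. Hotair, and the non-members Hoxb1, Hoxc12 and Hoxc13, had 0 counts in every library.

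The 12 libraries came from colon and blood of 6 male C57BL/6 mice aged 8 weeks. Mice 1, 2 and 4 are labelled ulcerative colitis (UC) and mice 7, 8 and 9 control. By the treatment protocol, UC mice were given 1.5% dextran sulfate sodium (DSS), which injures the gut lining, in their water for 7 days, and control mice water without it. All were killed on day 8. The study took 3 mice per group for sequencing by their disease activity index, so these are not a random sample of treated animals, and it describes its colon profiling as being of the whole organ.

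The libraries held 69181049 to 103662306 counts in colon and 80867247 to 142536804 in blood. One label field names the tissue opposite to the other in every sample. The groups here follow the field that the markers match: all 8 colon epithelium genes were called higher in colon, and the 4 red cell, 4 platelet, 4 T cell and 3 B cell genes were called higher in blood. Of the 8, 6 did not pass the filter on low counts in blood alone, so the direction of their calls was fixed by the filter. Epcam and Cdh1 passed in both tissues. All the blood genes passed in blood, and all but 1 platelet gene passed in colon. The disease labels go against an inflammatory marker in colon and in blood. S100a8, a neutrophil gene, had normalized colon counts of 5370, 33.1 and 22.3 for the UC-labelled mice 1, 2 and 4. For the control-labelled mice 7, 8 and 9 it had 1888, 75.6 and 13337. In blood it had 88578, 14299 and 11466 against 37179, 8642 and 101913. In both tissues mice 1, 7 and 9 were its 3 highest. The groups are therefore called UC-labelled and control-labelled throughout, and leaving out all 4 libraries at odds with their label (mice 2, 4, 7 and 9) leaves 1 per group and no test. Each library is 1 sample of 1 mouse, so p-values measure the spread between these samples only.

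Hox genes encode transcription factors with a DNA-binding homeodomain, and lie in the mouse in clusters named Hoxa, Hoxb, Hoxc and Hoxd. Genes at the same place in different clusters are paralogs and share a number. Low-numbered genes are active towards the head and high-numbered genes towards the tail, so that adult gut keeps a Hox pattern that reflects position, with the highest-numbered genes in the hindgut. In blood formation, Hox genes are used mainly by stem and progenitor cells and decline as cells mature. Hottip and Hotairm1 are noncoding genes at opposite ends of the Hoxa cluster, and Hotair is one inside the Hoxc cluster. On GRCm38 the clusters lie on chromosome 6 (Hoxa, 52155590 to 52260880), chromosome 11 (Hoxb, 96194316 to 96368256), chromosome 15 (Hoxc, 102921103 to 103036852) and chromosome 2 (Hoxd, 74668310 to 74765142).

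**Figure D1:**
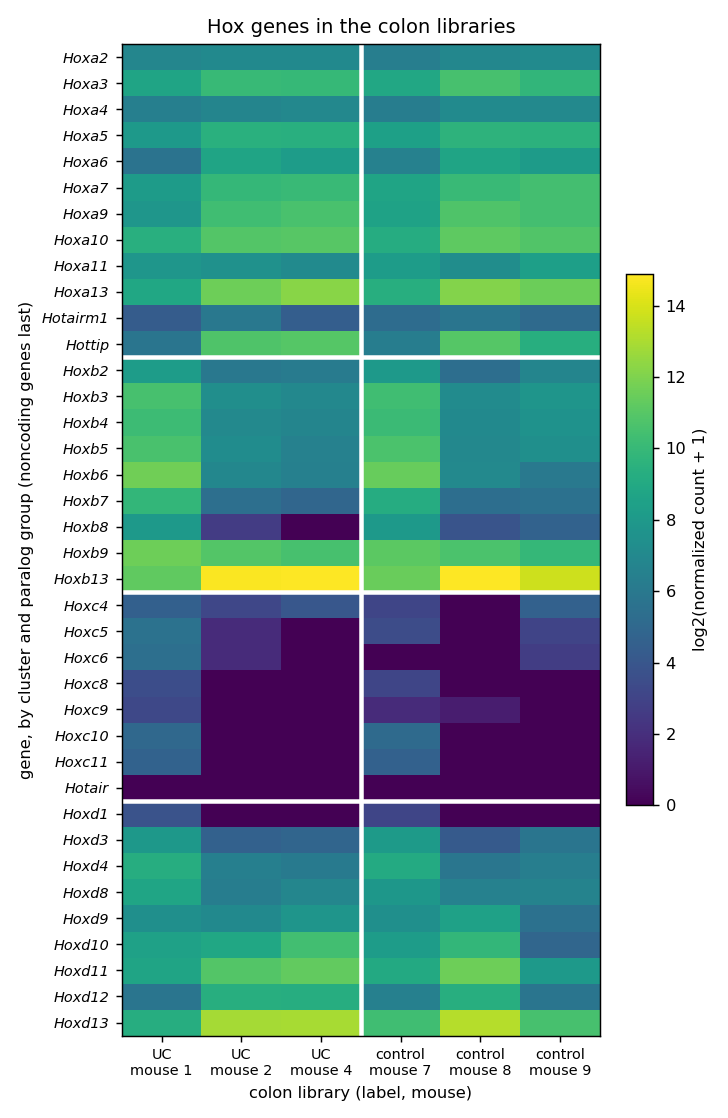
Heat map of log2(normalized count + 1) for 38 of the 39 genes (lines, by cluster and paralog group, noncoding genes last) in the 6 colon libraries (columns, labelled UC left and labelled control right), with white lines between clusters and between labels. Mouse 1 (labelled UC) and mouse 7 (labelled control) share a pattern in which Hoxb2 to Hoxb8 are bright, at 3236 and 2723 normalized counts for Hoxb6, and Hoxb13 is dimmer, at 2471 and 2897, than in the other 4.

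The tail-end genes Hoxb13, Hoxd13 and Hoxa13, paralog group 13, had the highest mean levels per exon length in colon. Hoxb13, whose product marks the hindgut and prostate, had normalized counts of 2471, 28174 and 30119 for the UC-labelled mice 1, 2 and 4 and of 2897, 30034 and 13692 for the control-labelled mice 7, 8 and 9. Its 2 lowest libraries were 1 of each label, and the groups overlapped. Hoxd13, needed for hindgut and digit development, had 619, 7619 and 7848 normalized counts against 1296, 9399 and 1472. Here mouse 9 lay with mice 1 and 7 at the low end, unlike for Hoxb13, where it lay between. Hoxa13, which acts with Hoxd13 in the hindgut, had 461, 3081 and 4817 against 642, 4467 and 3011. Hottip, a noncoding RNA gene that starts 1895 bases past Hoxa13 on the other strand and is known for sustaining the tail-end Hoxa genes in human cells, had 54.9, 1727 and 1994 against 77.1, 1959 and 646. All 4 genes had their 2 lowest colon libraries in mice 1 and 7.

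Hottip and Hoxa13 are divergent neighbours, and Hoxd13 is on another chromosome, so their promoter windows are shown to let the sequences of genes that moved together across the libraries be compared. Each window holds 250 bases before and 50 after the start of the transcript on its own strand, as given by RefSeq for GRCm38.p6. The windows are chr6:52262525-52262824 (plus strand) for Hottip, chr6:52260831-52261130 (minus strand) for Hoxa13 and chr2:74667975-74668274 (plus strand) for Hoxd13. Capitals mark matches, on either strand, to a CDX-type motif (TTTATNG), a HOX13-type motif (TTTACGA), a HOX-PBX motif (TGATTNAT) and the TATA box (TATAAA).
Hottip: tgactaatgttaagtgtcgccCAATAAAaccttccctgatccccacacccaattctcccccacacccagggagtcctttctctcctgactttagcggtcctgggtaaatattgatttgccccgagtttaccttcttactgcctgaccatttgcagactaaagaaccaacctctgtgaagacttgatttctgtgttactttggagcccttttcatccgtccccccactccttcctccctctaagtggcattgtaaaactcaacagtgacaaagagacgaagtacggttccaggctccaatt
Hoxa13: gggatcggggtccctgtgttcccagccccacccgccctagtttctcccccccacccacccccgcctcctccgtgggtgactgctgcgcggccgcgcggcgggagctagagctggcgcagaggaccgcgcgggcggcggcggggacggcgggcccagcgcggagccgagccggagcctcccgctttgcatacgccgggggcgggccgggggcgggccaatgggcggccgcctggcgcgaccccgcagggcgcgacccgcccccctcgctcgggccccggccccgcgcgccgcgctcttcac
Hoxd13: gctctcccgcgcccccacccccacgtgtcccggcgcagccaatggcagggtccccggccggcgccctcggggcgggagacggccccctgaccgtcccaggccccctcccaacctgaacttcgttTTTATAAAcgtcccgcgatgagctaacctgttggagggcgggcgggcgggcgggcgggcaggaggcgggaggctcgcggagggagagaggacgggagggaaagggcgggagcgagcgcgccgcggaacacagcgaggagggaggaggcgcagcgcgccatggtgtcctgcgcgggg
The windows differ in base composition. G and C made up 81.0% of the Hoxa13 window and 74.3% of the Hoxd13 window, with 45 and 37 CG pairs, but 47.7% of the Hottip window, with 6 CG pairs. The median over all 32851 promoters of this length was 52.7% and 7 CG pairs. Hottip held 1 CDX-type match, Hoxd13 held 2 overlapping TATA box matches on opposite strands, and Hoxa13 held no match to these letters. Over all promoters, 10.9% held the CDX-type letters, 0.597% the HOX13-type, 3.22% the HOX-PBX and 13.6% the TATA box. The table had windows for 22 of the 39 genes, none of them Hoxb13 or Hoxb6.

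The other high-numbered genes of the Hoxa and Hoxd clusters did not all follow group 13. Hoxa10 had normalized counts of 658, 1939 and 2105 for UC-labelled mice and 589, 2310 and 1840 for control-labelled mice, again lowest in mice 1 and 7. Hoxa11, a gene of uterus and limb development, had 227, 184 and 137 against 292, 159 and 335, so mice 1, 7 and 9 were its 3 highest. Hoxa11 shares 35% of its exon bases with the antisense gene Hoxa11os. Since strand was not used in the quantification, reads within the shared bases may not have been told apart by gene. Hoxa11os, a noncoding gene outside the rule, had 265, 3704 and 3986 against 343, 4868 and 1867, with mice 2, 4 and 8 highest and mice 1 and 7 lowest, as for Hottip and unlike Hoxa11. Hoxd11 had 412, 1913 and 2489 against 531, 3151 and 262. Hoxd12 had 54.0, 648 and 610 against 88.5, 645 and 54.0. Hoxd10 had 366, 473 and 1320 against 297, 921 and 29.7. For these 3 Hoxd genes the library of mouse 9 was at or within the lowest 2, beside 13692 normalized counts of Hoxb13 in the same library.

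**Figure D2:**
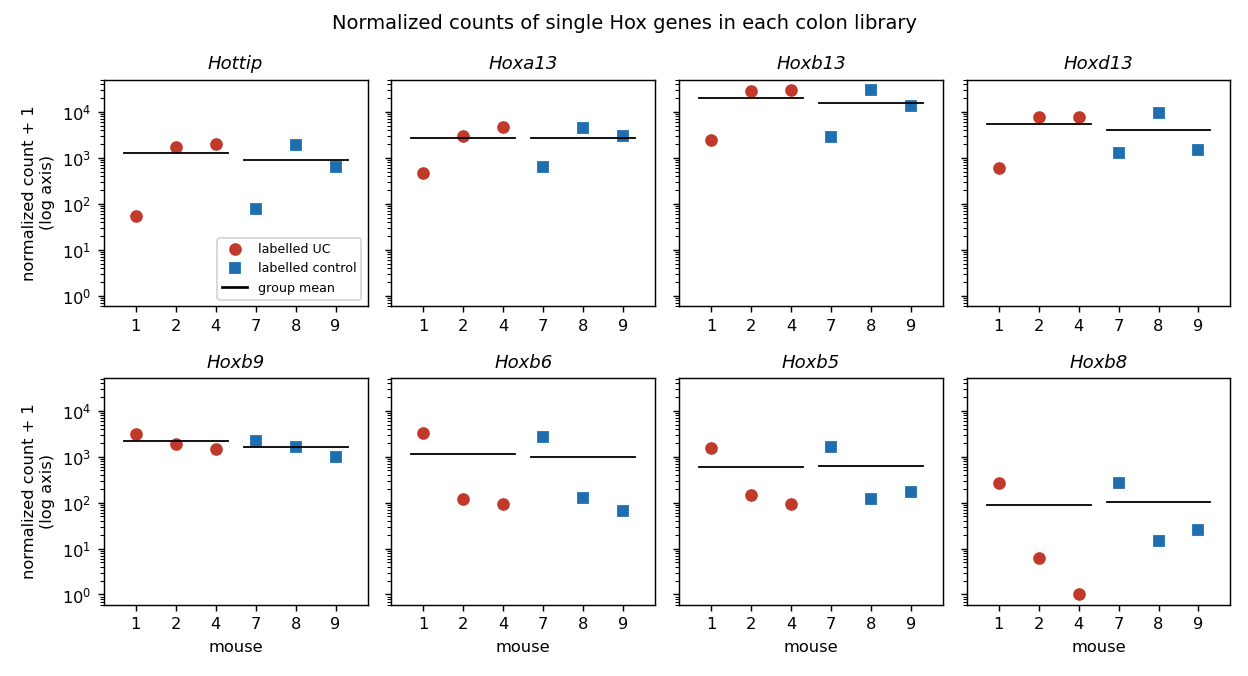
Normalized counts plus 1 (log axis) of 8 genes in each colon library (mouse number on the horizontal axis), with circles for libraries labelled UC, squares for those labelled control and a line at each group mean. Hottip, Hoxa13, Hoxb13 and Hoxd13 are lowest in mice 1 and 7, Hoxb5, Hoxb6 and Hoxb8 are highest there, and Hoxb9 spans only 965 to 3128.

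The middle genes of the Hoxb cluster ran the other way. Hoxb6 had normalized counts of 3236, 117 and 89.9 for UC-labelled mice and 2723, 125 and 63.9 for control-labelled mice. Hoxb5 had 1550, 147 and 92.4 against 1596, 121 and 169, and Hoxb7 had 916, 41.8 and 28.9 against 601, 40.3 and 45.9. Hoxb8, a mid-body gene also used in myeloid precursors, had 263, 5.23 and 0 against 267, 13.9 and 24.3. In each of these 4 genes mice 1 and 7 stood far above the other 4 libraries, which spread little by comparison. Hoxb3 had 1517, 165 and 120 against 1249, 146 and 216, and Hoxb4 had 1165, 126 and 108 against 1119, 135 and 190. Hoxb9, next in line before Hoxb13, had 3128, 1907 and 1481 against 2223, 1622 and 965, so that its highest value was a smaller multiple of its lowest than for Hoxb7 or Hoxb13.

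The Hoxb8 window is shown because, of the Hoxb2 to Hoxb8 genes, only Hoxb4 and Hoxb8 had one, and its window held matches to 3 of the 4 motifs searched. It is chr11:96281655-96281954 on the plus strand of GRCm38.p6, from RefSeq, with capitals as above.
Hoxb8: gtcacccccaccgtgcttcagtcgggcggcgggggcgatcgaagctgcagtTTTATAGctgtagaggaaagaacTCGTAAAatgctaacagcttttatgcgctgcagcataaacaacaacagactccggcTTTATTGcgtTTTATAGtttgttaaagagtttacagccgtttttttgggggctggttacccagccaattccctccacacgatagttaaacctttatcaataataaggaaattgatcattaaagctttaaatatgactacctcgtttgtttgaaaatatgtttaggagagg
It held 3 CDX-type matches, 1 HOX13-type match and 2 TATA box matches, each of the latter lying within a CDX-type match on the opposite strand. The HOX13-type letters occurred in 2 of the 24 member windows and the CDX-type letters in 3, those of Hottip, Hoxb8 and Hoxd4. G and C made up 42.3% of the Hoxb8 window, with 13 CG pairs.

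In the Hoxd cluster the low-numbered genes resembled the middle Hoxb genes. Hoxd4 had normalized counts of 625, 83.6 and 66.8 for UC-labelled mice and 556, 56.7 and 82.8 for control-labelled mice, and Hoxd3 had 239, 23.5 and 28.0 against 274, 17.6 and 53.1. Of the exon bases of Hoxd3, 53.1% are shared with the overlapping gene Gm28230, and so are 39.1% of those of Hoxd4, so their counts may have been divided among these genes. Hoxd8 had 436, 77.5 and 115 against 234, 92.01 and 102. Hoxd9 lay between the ends of the cluster and had 171, 135 and 219 against 171, 363 and 46.8.

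Of the lower-numbered Hoxa genes, Hoxa2 and Hoxa4 differed little between libraries. Hoxa2 ranged from 82.2 to 139 normalized counts and Hoxa4 from 77.1 to 140. The next genes had wider ranges. Hoxa3 ranged from 419 to 1489, Hoxa5 from 269 to 793, Hoxa6 from 50.2 to 411, Hoxa7 from 292 to 1370 and Hoxa9 from 222 to 1789, each with its lowest values in mice 1 and 7. Hoxa2 to Hoxa7, Hoxa9, Hoxa10 and Hoxa13 were thus lowest in mice 1 and 7, towards both ends of the cluster, while in Hoxb and Hoxd the low-numbered genes were highest there and group 13 lowest. Hotairm1, at the head end of the cluster, had 18.9, 60.1 and 20.6 for UC-labelled mice and 36.7, 54.2 and 34.2 for control-labelled mice. Reads of the opposite strand within its exons likewise could not be separated from it.

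The Hoxc cluster was nearly silent in colon, with no member above 47.4 normalized counts in any library. Hoxc10 had 31.3 in mouse 1 and 34.1 in mouse 7, Hoxc11 had 24.6 and 24.0, and both were at 0 counts in the other 4 libraries. Hoxc8 and Hoxd1 were likewise detected only in the colon libraries of mice 1 and 7, at 7.59 to 13.3 normalized counts. Hoxc4 had 22.7, 7.84 and 15.7 against 7.59, 0 and 23.4 and followed neither pattern. Hoxc9 had at most 8.52.

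Counted over the 33 genes with a mean of at least 10 normalized counts in colon, 13 had their 2 highest libraries in mice 1 and 7. These were Hoxb2 to Hoxb9 (all 8 genes), Hoxc5, Hoxc10, Hoxd3, Hoxd4 and Hoxd8. Another 12 had their 2 lowest there: Hoxa2 to Hoxa7, Hoxa9, Hoxa10, Hoxa13, Hottip, Hoxb13 and Hoxd13. Over the 22123 colon genes with such a mean, 11.8% had their 2 highest and 13.8% their 2 lowest libraries in these mice. The order was read off the same counts on which the genes were selected, so no test was made, and since mouse 1 is labelled UC and mouse 7 control, this order cuts across the disease labels.

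To compare genes with each other, counts were divided by exon length and by the scaled library total, giving CPM (counts per 1000000 counts of the scaled library total) per kilobase of exon. On this scale the 8 highest mean levels in colon were those of Hoxb13, Hoxd13, Hoxa13, Hoxb9, Hoxb6, Hoxa10, Hottip and Hoxd11. Hoxb13 ranged from 6.21 (mouse 1) to 76.2 (mouse 8), while Hoxb6 ranged from 0.180 (mouse 9) to 9.13 (mouse 1). In mice 1 and 7 the level of Hoxb6 exceeded that of Hoxb13. The ratio of Hoxb13 to Hoxb6 was 0.680 in mouse 1, 0.947 in mouse 7, 191 in mouse 9, 214 in mouse 8, 215 in mouse 2 and 298 in mouse 4. Such a ratio is taken within 1 library and does not depend on the scaling between libraries.

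The share of the summed Hox level that came from paralog groups 10 to 13 condenses the order. It was 26.5%, 86.8% and 88.9% for the UC-labelled mice 1, 2 and 4 and 34.5%, 87.4% and 77.7% for the control-labelled mice 7, 8 and 9. Mice 1 and 7 were low and the other 4 were high, mouse 9 the lowest of these. The means were 67.4% ± 35.4 (SD, n = 3) and 66.5% ± 28.2 (SD, n = 3), so the labelled groups differed by far less than the spread within either. Over all colon libraries the mean was 67.0% ± 28.6 (SD, n = 6), and without mice 1 and 7 it was 85.2%. Hoxb13 alone made up 13.5%, 59.2% and 57.7% for UC-labelled mice and 16.4%, 55.4% and 54.6% for control-labelled mice. With Hoxb13 left out, the mean share was 50.1%.

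**Figure D3:**
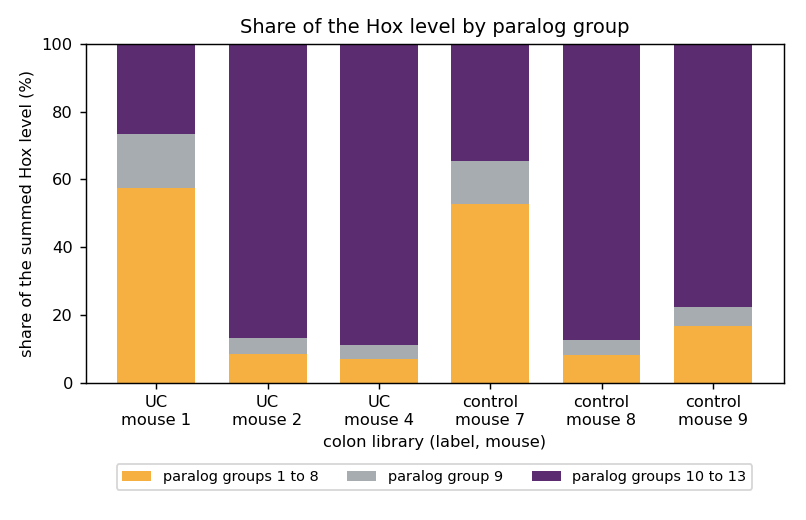
Stacked bars of the share of the summed Hox level per exon length (percent, vertical axis) from paralog groups 1 to 8, group 9 and groups 10 to 13 in each colon library. Groups 1 to 8 make up 57.4% in mouse 1 and 52.9% in mouse 7, and between 7.08% and 16.7% in the other 4.

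Split by cluster, the Hoxb share of groups 10 to 13, which is Hoxb13 alone, moved most. It was 18.3% in mouse 1 and 24.2% in mouse 7, and 92.8%, 94.7%, 94.0% and 90.4% in mice 2, 4, 8 and 9. The Hoxd share was 52.5% in mouse 1 and 66.7% in mouse 7 and between 87.4% and 97.0% in the others. The Hoxa share stayed between 45.2% and 61.1% in all 6 libraries. The Hoxc share ran the other way, at 36.8% in mouse 1, 75.0% in mouse 7 and 0 in the others, but over a summed Hoxc level of at most 0.430 per exon length. Hoxa levels as a whole were lower in mice 1 and 7, at 5.69 and 7.16 on the scale per exon length, than in the others, at 19.9 to 25.7, and so were those of Hoxb, at 34.0 and 31.0 against 38.1 to 81.1. For Hoxd, mouse 9 had the lowest total, 4.39, beside 6.01 in mouse 1, 7.24 in mouse 7 and 22.7 to 30.9 in the rest.

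Other colon genes moved across the same libraries. Cdx2, a homeobox gene of intestinal identity that lies outside the Hox clusters, had normalized counts of 12701, 1411 and 1216 for UC-labelled mice and 11069, 1228 and 3808 for control-labelled mice, while its relative Cdx1 stayed between 11007 and 14615. Isx, an intestinal homeobox gene that restrains vitamin A uptake, had 15648, 38.3 and 44.5 against 10777, 51.7 and 4989. Ttll6, the tubulin-modifying gene beside Hoxb13, had 905, 4388 and 3916 against 683, 4018 and 975, and Evx2, beside Hoxd13, had 90.9, 327 and 657 against 114, 727 and 142. The retinaldehyde dehydrogenase gene Aldh1a1, whose product makes retinoic acid, a known inducer of Hox genes, had 23076, 2977 and 3233 against 20260, 2874 and 1640. Its relatives did not share this order. Aldh1a3 had 16325, 729 and 1214 against 14462, 1560 and 22557, highest in mouse 9. Aldh1a2 had 929, 103 and 50.3 against 212, 59.2 and 304, higher in mouse 9 than in mouse 7. Rdh10 was also highest in mouse 9 (7022). A link of retinoic acid to the Hox pattern was not tested.

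Markers of other tissue and cells moved as well. The 5 small intestine genes summed to 14197, 802 and 918 normalized counts for UC-labelled mice and to 22768, 560 and 778 for control-labelled mice. Of these 5, Fabp2 and Alpi were high in mice 1 and 7, whereas Lct was at or below 29.0 and Apoa4 at or below 16.5 in every library. Fabp6 had 190, 180 and 168 against 400, 134 and 123, so that mouse 1 lay near mouse 2. The 5 neutrophil genes summed to 12177, 95.8 and 132 against 5101, 281 and 37510. The 3 NK cell genes summed to 988, 16.5 and 85.0 against 465, 76.9 and 368, and the 4 T cell genes to 726, 169 and 257 against 804, 173 and 597. Mice 1, 7 and 9 were thus the 3 highest for each of these 3 immune lists. The NK cell order rests on Gzma, since Ncr1 was higher in mouse 4 (26.4) than in mouse 1 (18.0) or mouse 9 (12.6). The 3 B cell genes did not share the order, at 88.1, 585 and 1144 against 1507, 169 and 1792, lowest in mouse 1. Mice 1, 7 and 9 were also the 3 highest for the 6 enteric neuron and glia genes, at 4914, 2191 and 2041 against 4425, 1272 and 6065. So they were for the 7 fibroblast genes, at 133763, 111846 and 87257 against 180834, 79355 and 229445. Single genes of these lists differed. S100b was higher in mouse 2 (151) than in mouse 1 (146) or mouse 9 (125), while the other enteric genes kept the order. Col3a1, Dcn, Pdgfra and Pdgfrb kept it too. Col1a1 (8737 against 7499) and Col1a2 (18892 against 17620) were higher in mouse 2 than in mouse 1. Lum was higher in mouse 2 (4052) than in mouse 7 (3766). The 6 smooth muscle genes summed to 228690, 534675 and 409540 against 362013, 350885 and 128101, lowest in mouse 9. The 8 colon epithelium genes ranged from 726385 to 1094160. The 7 epididymis genes summed to 789 and 517 in mice 1 and 7, all of it Defb37, and to at most 63.0 in the others, with Lcn5, Lcn8, Lcn9 and Adam7 at 0, and the 6 squamous genes from 185 to 362 with Sprr3 at 0. The 5 skeletal muscle genes ranged from 919 to 1970. The part of cell makeup, of sampling site and of inflammation in the Hox pattern was not tested. In bulk tissue, fewer cells of a type and less RNA per cell cannot be told apart.

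**Figure D4:**
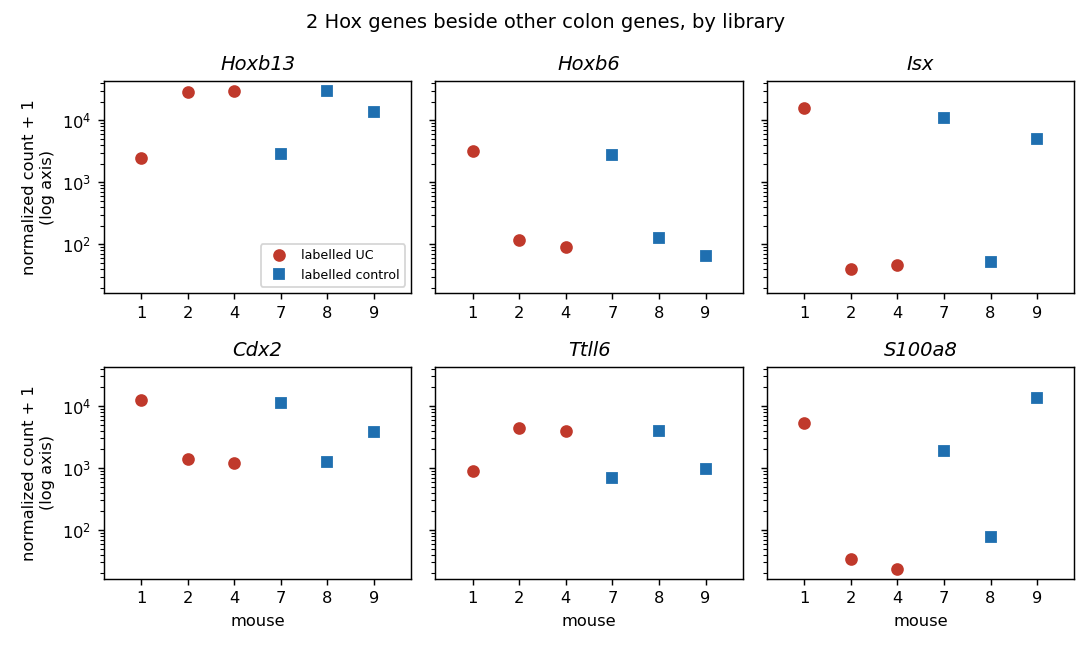
Normalized counts plus 1 (log axis) in each colon library (mouse number on the horizontal axis) for Hoxb13 and Hoxb6 beside Isx, Cdx2, Ttll6 and the neutrophil gene S100a8, with circles for libraries labelled UC and squares for those labelled control. Hoxb6, Isx and Cdx2 are highest in mice 1 and 7, whereas S100a8 is highest in mouse 9 at 13337.

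The study asks what differs between UC and control mice in colon. The test of the labelled groups (edgeR quasi-likelihood, Benjamini-Hochberg adjustment over all genes tested, called at an adjusted p of at most 0.05 and a log2 fold change above 1 in size) called none of the 31 members that passed the filter on low counts, and none had an unadjusted p below 0.05. DESeq2, which gave 6 of them no adjusted p, and limma-voom also called 0. Over all 22238 genes tested, 1 was called, or 0.00450%. The member with the lowest p was Hoxa11, with 183 ± 45.2 normalized counts for UC-labelled mice and 262 ± 91.8 for control-labelled mice (SD, n = 3 each), a log2 fold change of -0.53 (SE 0.38) and an edgeR adjusted p of 0.99995. Hoxb9 followed with 0.42 (SE 0.40) and Hoxd8 with 0.54 (SE 0.75). Hottip differed by 0.47 (SE 1.37), Hoxb13 by 0.36 (SE 1.05), Hoxd13 by 0.38 (SE 1.10), Hoxa13 by 0.03 (SE 0.93) and Hoxb6 by 0.22 (SE 1.80) on the log2 scale. With such errors, differences of that size were not detectable with 3 mice per group, which does not show that they are absent. The labels compared are also those that S100a8 goes against, so the result holds for the labels as given. No member had labelled groups that did not overlap, against 5.41% of all genes tested. Leaving out mice 1 and 7 also left 0 members called.

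In blood the Hox genes were close to the limit of detection. Of the 39 genes, 22 had 0 counts in all 6 libraries, including all of group 13, Hottip, Hotair, Hoxb5, Hoxb8, Hoxb9 and every Hoxa gene from Hoxa9 upward. At 0 counts, up to 3 counts per library remain possible, which is 0.0552 CPM on average over the blood libraries. Only Hotairm1 and Hoxb4 were detected in each of the 6. The remaining 15 genes had counts in 1 or 2 libraries, with 22 counts in all for Hoxb3, 18 for Hoxa5, 14 for Hoxb6, 10 for Hoxc9 and 9 each for Hoxa6 and Hoxd8. By normalized count, Hoxa5 (16.1), Hoxa6 (10.3), Hoxb6 (16.1) and Hoxb7 (3.45) were highest or alone in mouse 8, Hoxb3 was found in mice 7 (8.42) and 9 (9.10), Hoxc9 in mice 1 (5.27) and 4 (4.09), and Hoxd8 in mice 2 (4.52) and 7 (4.59). Such values rest on a handful of reads, and no order among them can be read.

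Hotairm1, known as a noncoding RNA of myeloid cells, had normalized blood counts of 125, 138 and 129 for the UC-labelled mice 1, 2 and 4 and 58.2, 91.9 and 53.8 for the control-labelled mice 7, 8 and 9. The groups did not overlap, as for 6.50% of the 16759 blood genes tested. The log2 fold change was 0.94 (SE 0.33) with an unadjusted p of 0.0215 and an edgeR adjusted p of 0.99982, so the difference did not pass. The blood neutrophil genes summed to 423510, 50808 and 45981 against 148770, 38255 and 342747 normalized counts and did not share this order. Hoxb4, which promotes self-renewal of blood stem cells, had 38.96, 16.6 and 43.4 against 72.0, 12.6 and 17.4, a log2 fold change of -0.05 (SE 0.75). These 2 genes were the only members tested in blood and neither was called, beside 0% of all genes (0 called by edgeR, 241 with an unadjusted p below 0.05, and 6 called by DESeq2).

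**Figure D5:**
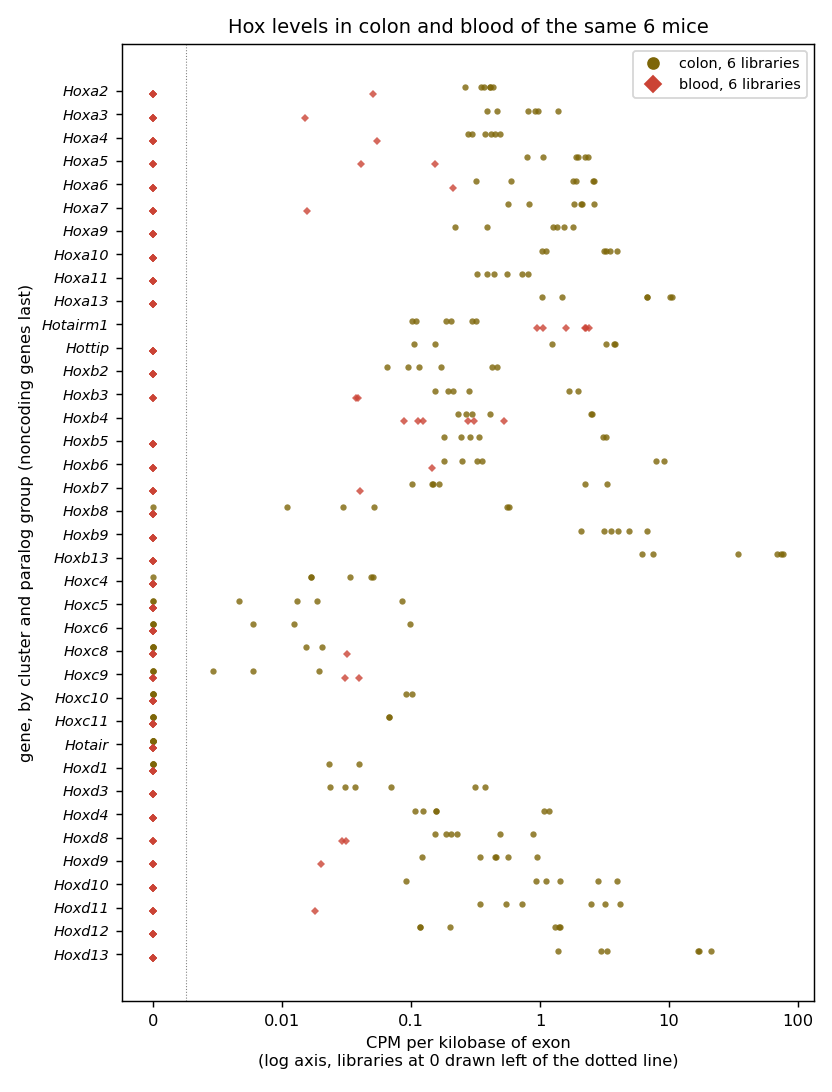
CPM per kilobase of exon (log axis, libraries at 0 left of the dotted line) of 38 of the 39 genes (by cluster and paralog group, noncoding genes last) in 6 colon libraries (circles) and 6 blood libraries (diamonds). Hotairm1 is the gene with every blood library, 0.952 to 2.38, above every colon library, 0.102 to 0.320, and Hoxb4 overlaps between the tissues.

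Colon and blood of the same mice were then compared. The lowest colon library lay above the highest blood library in 27 of the 39 genes, and the reverse held for Hotairm1. The share of all genes for which this holds was not taken, so the count shows nothing particular to the Hox genes. Hoxb13 had 98.7 ± 73.0 CPM in colon (SD, n = 6), at least 1786-fold above the 3-count floor of blood. In the same terms Hoxd13 was at least 470.4-fold, Hoxa13 274-fold, Hoxb9 189.8-fold, Hoxa10 157-fold and Hottip 107-fold higher. In edgeR, 30 of the 31 members tested were called higher in colon and 1, Hotairm1, higher in blood, beside 37.7% and 20.8% of all 23258 genes tested. Of these 31, 29 did not pass the filter in blood alone. They passed through their colon counts, which fixed their direction, and the count of calls supports nothing about the group. The median of all genes was itself shifted, by 0.46 on the log2 scale.

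Hotairm1 and Hoxb4 were also expressed in blood, so their tests are not fixed by the filter. Hotairm1 had 0.208 ± 0.0933 CPM in colon and 1.80 ± 0.658 in blood (SD, n = 6 each), a log2 difference of -3.04 (SE 0.36, edgeR adjusted p = 2.03e-05). It ran from -3.39 to -2.91 when single mice were left out. With library size as the only scaling, the all-gene median moved to 2.57 and Hotairm1 to -0.88 (adjusted p = 0.0476), below the fold limit for a call. Hoxb4 had 2.65 ± 2.92 in colon and 0.613 ± 0.429 in blood, a log2 difference of 2.10 (SE 0.80, edgeR adjusted p = 0.0357). Its colon value rests on 1 library of each label, since it was 1.17 (edgeR adjusted p = 0.187) without mouse 1 and 0.98 (edgeR adjusted p = 0.0907) without mice 1 and 7. It also lost its call without mouse 2 (2.18, edgeR adjusted p = 0.0578) and without mouse 9 (2.14, edgeR adjusted p = 0.0703), where the difference itself was no smaller, and in limma-voom (1.49, adjusted p = 0.179). Hoxb8 lost its call without mouse 1 (6.50, edgeR adjusted p = 0.055), without mouse 7 (7.84, edgeR adjusted p = 0.0611) and in limma-voom (3.55, adjusted p = 0.057). Hoxc4 lost it with the mouse as a block (6.14, edgeR adjusted p = 0.052).

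Whether the labelled groups differed by a different amount in colon than in blood was tested as an interaction. None of the 31 members was called, beside 0.00430% of all genes (1 of 23258), and 2 had an unadjusted p below 0.05. Among them was Hoxa2 (log2 difference of differences -4.97, SE 2.12, edgeR adjusted p = 0.99998), which rests on 6 counts in 1 blood library, that of mouse 4. For members at 0 counts in all blood libraries, the labelled difference in blood cannot be estimated. Examples are Hoxb13 (SE 1540) and Hottip (SE 1832). The test could not call these members, so the lack of a call shows nothing about them.

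Partners and regulators of Hox genes were followed through lists, with calls by the same test, beside the 37.7% and 20.8% of all genes called higher in colon and in blood. Genes that did not pass the filter in blood alone entered through colon. Their direction was fixed by the filter, though not all were called, so their calls support nothing. Of the 9 TALE genes, whose homeodomain products bind DNA together with Hox proteins, 4 were called higher in colon and 2 higher in blood, none by the labels. Meis2 and Pknox2 entered through colon. Meis3 was 3.93 (SE 0.74) and Meis1 1.60 (SE 0.26) higher in colon on the log2 scale, while Pbx4 (-1.76, SE 0.71) and Pknox1 (-1.13, SE 0.11) were lower. Across colon libraries Meis1 spanned 941 to 1735 normalized counts, a far narrower range than that of Hoxb6. Of the 15 Polycomb genes, whose products keep Hox genes silent, 2 were called higher in colon and 5 higher in blood. Ezh2, the catalytic subunit, differed by -6.13 (SE 0.39) and Suz12 by -1.90 (SE 0.30), while Pcgf2 entered through colon. Of the 13 Trithorax genes, which act the opposite way, 1 was called higher in colon (Dpy30, 2.03, SE 0.32) and 2 higher in blood (Psip1 and Kdm6a). The directions toward blood depend on the scaling. With library size alone, 7 of 9 TALE, 10 of 15 Polycomb and 11 of 13 Trithorax genes were called higher in colon and 1 gene of the 3 lists, Ezh2 (-4.03), higher in blood, beside 76.9% and 7.55% of all genes. Pbx4 (0.44), Pknox1 (0.99), Suz12 (0.19), Psip1 (0.70) and Kdm6a (0.85) then changed sign without being called, as did Eed and Jarid2. The part of cell makeup in these differences between tissues was not tested.

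Of the 13 retinoic acid genes, 7 were called higher in colon and 2, Aldh1a1 and Cyp26c1, higher in blood. Of these 7, 5 entered through colon, and Rxra and Rdh10 had passed in blood. The list of 16 gut regional transcription factors had 12 tested, all called higher in colon, of which 11 entered through colon. Of the 12 Hox cluster neighbours, 4 were called higher in colon, Evx1, Evx2, Ttll6 and Calcoco2, each of which entered through colon, and 3 higher in blood, Skap1, Skap2 and Lnpk. With library size alone, Skap2 (0.07) and Lnpk (0.57) changed sign and were not called. Among the 12 further noncoding genes of the clusters, 7 were tested, none of which passed in blood. Of these 7, 5 were called higher in colon, among them Hoxa11os and Hoxb5os, in a direction fixed by the filter. In no list was a gene called between the labelled groups in either tissue. The medians over all genes tested were -0.01 in colon and 0.04 in blood for the labelled groups and 0.46 for colon against blood, all as log2 differences.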

How the data were processed

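The 12 libraries were made from colon and blood RNA of 6 mice, depleted of ribosomal RNA, and that of blood also of globin RNA. Reads were aligned to GRCm38 with STAR and quantified by the authors with StringTie 1.3.4c on Ensembl annotation without strand, which splits coverage between overlapping genes. The deposited gene counts derive from that coverage. The deposited normalized counts are a signal scale made by the authors, counts divided by 1 DESeq2 factor per library, separately per tissue, and were compared only within a tissue.

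The main tests used edgeR 4.0.16 in R 4.3.3 (TMM, filterByExpr, glmQLFit, glmQLFTest, Benjamini-Hochberg over all genes tested). Colon and blood were fitted alone for the labelled groups, and together for tissue and interaction. SE is the log2 fold change divided by the root of F. A call needed an adjusted p of at most 0.05 and, but for the interaction, a log2 fold change over 1. Levels per length used merged exons of GENCODE (GRCm38). The steps were tested on simulated data. Alternatives were RLE and library size scaling, other filters, DESeq2 1.42.0, limma-voom (limma 3.58.1), mice left out, and the mouse as a block.

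Same-numbered colon and blood libraries come from the same animal by the study's design. Their deviations from group means correlated across 15802 genes with r from 0.00468 to 0.227, over 0.1 in 3 of 6 pairs. No 2 libraries of the same tissue and label agreed within sampling noise, and pairs across labels were not compared in this way. Intervals and floors cover counting error only.

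Members and lists were chosen with earlier results of these data known. Values per library were given for the 3 noncoding genes, paralog group 13, the 8 highest levels per tissue, the 5 largest differences between tissues in each direction and the 3 lowest p per tissue. Other genes given per library were chosen after their values were seen. Of 174 list genes 173 were found. Values of some genes are not reported here. Promoter windows and motifs came from RefSeq (GRCm38.p6).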

Additional observations from a re-analysis of the deposited data

How the results depend on the processing

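No member was called between the labelled groups in colon or in blood, or in the interaction, under any alternative run, including each mouse left out (0 to 0). In the interaction, members at 0 in all blood libraries could not be called, so this supports nothing for them. For colon against blood, 31 members were called, 29 to 31 when single mice were left out, 30 with the mouse as replicate block (Hoxc4 lost, no other call changed), 30 with library size alone, 29 in limma-voom (Hoxb4 and Hoxb8 lost), and 26 in DESeq2, which gave 5 members no adjusted p. Restricting the test to genes of both normalized tables left 15, because members at 0 in blood are not listed there. Library size alone split all called genes 17886 higher and 1757 lower in colon, against 8759 and 4845. Over all genes, DESeq2 called 6 in colon against 1, 6 in blood against 0 and 19 in the interaction against 1. The share of groups 10 to 13 had a mean of 67.0%, 62.6% to 75.0% with single mice left out, and stayed within 1 SD in all alternatives. Of 472 values of single members under alternatives, all of colon against blood, 460 kept direction and call, 12 lost the call, and none reversed. Of the 31 members tested, 29 did not pass the filter in blood alone. Their direction was fixed by the filter, so its being kept supports nothing. Leaving out mice 1 and 7 or Hoxb13, and the fit on tissue alone (29 called), were chosen after seeing the data; without mice 1 and 7 the tissue comparison called 28. With 3 mice per group, the SE of the labelled differences in colon reached 1.97 for Hoxb8 and was 1.80 for Hoxb6 on the log2 scale. At 0 to 3 counts, blood levels of most members are limited by depth.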
